A study of Mus musculus with 69 samples.

Results

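The tenascins Tnc and Tnxb, the thrombospondins Thbs1, Thbs2 and Thbs3, and the matricellular or matrix proteins Spp1, Postn, Sparc and Fn1 were followed across primary murine vascular cells exposed to obesity-associated stressors. The members were the 9 rows whose Ensembl identifier carries these symbols, of 56953 gene rows in the count tables of WT VSMC, KO VSMC and EC. VSMC are vascular smooth muscle cells grown from the thoracic and abdominal aorta, and EC are endothelial cells from the heart that were enriched with magnetic beads as CD45- and CD31+ cells and grown on fibronectin-coated dishes. All cells came from male C57BL/6 mice whose age is not given in the sources used here. The study's methods state for VSMC that they had passed up to 7 passages and were serum-free during exposure. The methods for EC culture state neither. KO VSMC came from mice with a floxed Egfr gene, the receptor for epidermal growth factor, and a Cre recombinase driven by the SM22 promoter, which is active in smooth muscle; WT VSMC and EC are labelled wild type.

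Each culture was exposed for 24 h to 1 of 4 conditions. Control had no stressor, HG+FFA added 20 mM glucose and 100 µM free fatty acids (per the labels; the study's methods give 100 µM each of oleate and palmitate), AII+NA added 30 nM angiotensin II and 300 nM of a catecholamine (epinephrine in the labels, norepinephrine in the study's methods), and ALL combined the 4 stressors. The libraries that share a set number stem from 1 culture, and the sets are the replicates. WT VSMC had sets 1 to 4 with 4 libraries in every condition. KO VSMC had sets 5 to 8, with 3 libraries under ALL because that of set 5 was not analysed here. EC had sets 9 to 18, with 10 libraries under HG+FFA and ALL and 9 under Control and AII+NA, because the Control library of set 10 and the AII+NA library of set 15 were not analysed here. EC sets 17 and 18 came from 1 animal, so the 10 sets stand for 9 animals. Of these, 2 also gave WT VSMC sets and 2 also gave KO VSMC sets. The labels place all VSMC in batch B1 and all EC in batch B2, so cell type, organ and batch cannot be told apart.

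Matricellular proteins are secreted into the extracellular matrix, where they modulate how cells attach, move and receive growth factor signals rather than bearing load. Tnc is laid down where tissue is remodelled, and in vessels it is known from injured and diseased walls. Thbs1 binds CD36 and CD47 and can activate latent TGF-beta, Thbs2 is known as an inhibitor of angiogenesis, and Fn1 encodes fibronectin, a main ligand of integrins and a scaffold for other matrix proteins.

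The 69 libraries held 17166133 to 43240489 counts, with a median of 27143351. Levels are given in FPM, counted fragments relative to the scaled library size, times 1e6. A gene was called a DEG when its adjusted p was under 0.05 in both edgeR and DESeq2, its log2FC was at least 0.64 in either direction and its mean reached 3 FPM in either group compared. The mean Egfr level of a set lay between 246 and 430 FPM for WT VSMC and between 0.959 and 1.84 FPM for KO VSMC sets 6 to 8, but at 36.5 FPM for KO VSMC set 5. Acta2, a smooth muscle actin, averaged between 598 and 2393 FPM in the VSMC sets, whereas Myh11, the heavy chain of smooth muscle myosin, was at 2.75 to 10.8 FPM in every VSMC set except set 5, where it reached 239 FPM. The 6 fibroblast markers summed to 3098 to 5975 FPM in WT VSMC, 348 to 2851 FPM in KO VSMC and 216 to 4268 FPM in EC. The 6 smooth muscle markers summed to 748 to 1271, 896 to 3236 and 213 to 3254 FPM in the same order. In every WT VSMC set the fibroblast sum exceeded the smooth muscle sum. Within EC, sets 11 and 13 were highest in both sums. The 5 macrophage and leukocyte markers summed to at most 196 FPM in any set. The 8 endothelial markers summed to 1.68 to 54.4 FPM in WT VSMC, 4.46 to 20.6 FPM in KO VSMC and 57.2 to 4215 FPM in EC. EC sets 9, 13 and 11 were lowest, at 57.2, 58.1 and 132 FPM beside 54.4 FPM in the highest VSMC set, so they went against their label. EC results are therefore also given without sets 9, 11 and 13 where that changed a call.

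Compared per length of exon, the glycoprotein Sparc, which binds collagen, was the highest of the 9 members in all 16 WT VSMC and all 15 KO VSMC libraries. In EC, Sparc was highest in 20 and Fn1 in 18 of the 38 libraries. Under Control, the mean of Sparc in WT VSMC was 992 ± 405 FPM per kb (SD, n = 4). Thbs1 followed at 253 ± 137, Fn1 at 231 ± 59.9 and Thbs2 at 205 ± 100 FPM per kb. These 3 could not be ordered, since Thbs1 exceeded Fn1 in 2 of the 4 libraries and Fn1 exceeded Thbs2 in 2 of 4. The others were lower by a clear step, as Thbs2 exceeded Tnxb in 4 of 4 libraries. Tnxb was at 33.1 ± 16.7, Spp1 at 28.5 ± 16.9, Tnc at 25.8 ± 8.57, Postn at 11.9 ± 10.6 and Thbs3 at 9.84 ± 3.29 FPM per kb, and no neighbours in that order kept their rank in all 4 libraries. In KO VSMC the order was Sparc at 730 ± 227, Fn1 at 301 ± 159, Thbs1 at 206 ± 73 and Thbs2 at 72.8 ± 61.4 FPM per kb, with Tnc at 32 ± 35.4 (SD, n = 4). Sparc exceeded Fn1, and Thbs1 exceeded Thbs2, in 4 of 4 libraries. In EC, Sparc at 1016 ± 706 and Fn1 at 831 ± 267 FPM per kb (SD, n = 9) could not be ordered, since Sparc exceeded Fn1 in 4 of 9 libraries. Thbs1 stood at 497 ± 305 and exceeded Thbs2, at 79.1 ± 99 FPM per kb, in 9 of 9. Tnc was at 13.3 ± 12.1 FPM per kb. Spp1, at 4.84 ± 6.81, and Thbs3, at 4.16 ± 3.37 FPM per kb, had the lowest means and could not be ordered, since Spp1 exceeded Thbs3 in 3 of 9 libraries.

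**Figure D1:**
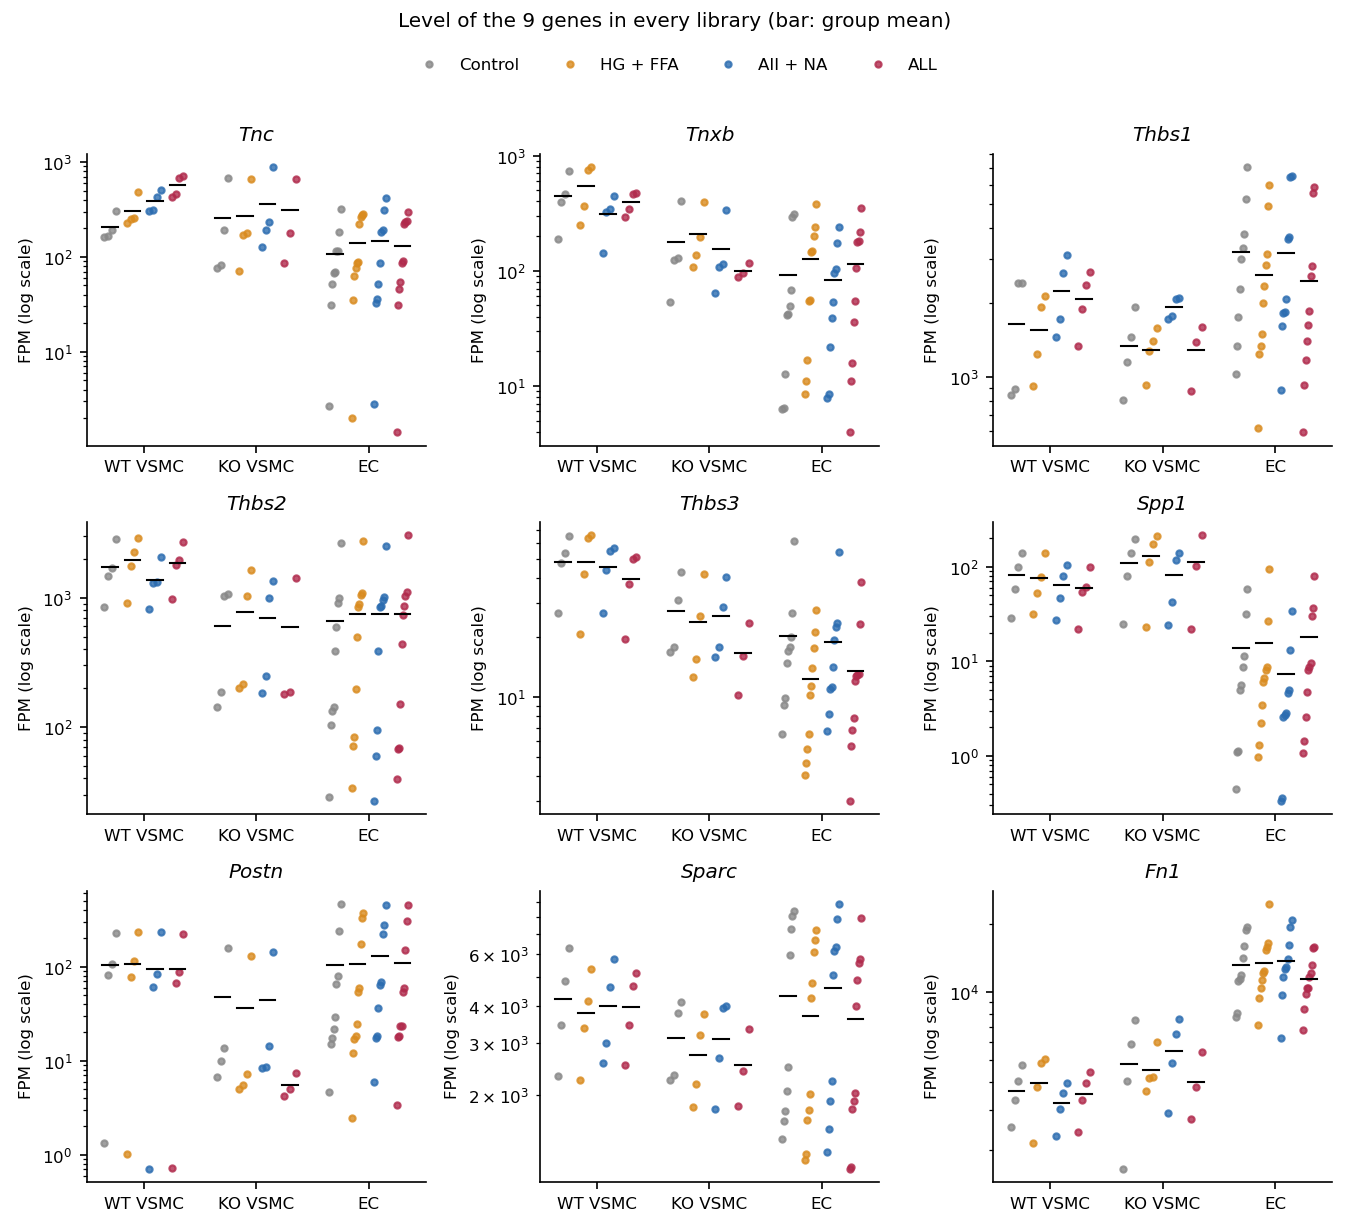
Level of the 9 members in every library, in FPM on a log scale, by cell type and condition. Each point is 1 library and each bar a group mean. Sparc and Fn1 stay at or above 1196 FPM across the libraries under HG+FFA, whereas Postn runs from 1.03 to 376 FPM there.

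Tnc was the only member called a DEG by a stressor in any cell type. In WT VSMC, Tnc rose under ALL with a log2FC of 1.49 (SE 0.17), a 2.81-fold higher level, at an edgeR FDR of 0.000234 and a DESeq2 adjusted p of 2.67e-16. Under Control, Tnc stood at 192, 160, 306 and 164 FPM in sets 1 to 4. Under HG+FFA it stood at 252, 258, 486 and 228 FPM, under AII+NA at 311, 301, 425 and 501 FPM, and under ALL at 431, 457, 680 and 718 FPM in the same sets. The Control and ALL libraries did not overlap, and ALL was the highest of the 4 conditions in every set, 2.23-fold to 4.39-fold above the Control of its own set. In this comparison 1 of the 9 members was called higher and none lower, against 1.22% of the 16905 genes tested that were called higher and 2.19% called in either direction.

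The single stressor pairs gave smaller values for Tnc in the same direction in all 4 WT VSMC sets. The log2FC was 0.93 (SE 0.17) under AII+NA, with an edgeR FDR of 0.0869 and a DESeq2 adjusted p of 3.17e-05. Under HG+FFA it was 0.56 (SE 0.17), with an edgeR FDR of 0.181 and a DESeq2 adjusted p of 0.0421. Neither met both criteria, so no member was called under AII+NA or HG+FFA, where 0.0414% and 0.284% of all genes were. At an unadjusted edgeR p under 0.05 there were 5 and 2 members, beside 9.42% and 11.2% of all genes. By the DESeq2 adjusted p alone there were 2 and 1, beside 1% and 1.74%. ALL exceeded HG+FFA by a log2FC of 0.93 (edgeR FDR 0.0744) and AII+NA by 0.56 (edgeR FDR 0.118), with 0.0296% and 0.544% of all genes called. The difference between ALL and the sum of both single effects on the log2 scale was -0.00 (SE 0.24, 95% interval -0.51 to 0.50), so departures from additivity of up to about that size were not resolved. These comparisons share the same Control libraries. The summed level of the 6 smooth muscle markers moved too. It was above Control in 4 of 4 WT VSMC sets under AII+NA, by a mean log2 ratio of 1.10 ± 0.82 (SD). Under ALL it was above Control in 3 of 4 sets, by 0.89 ± 1.0 (SD). Most of the sum was Acta2, with a median over the WT VSMC sets of 903 FPM beside 1040 FPM for the sum. Tagln averaged at most 4.7 FPM in these sets, and other genes share 66.7% of its exons. The part of these markers in the Tnc result was not tested. Set 4, which showed the largest Tnc ratio under ALL, did not carry the call, as Tnc remained a DEG with a log2FC of 1.28 to 1.61 when each set was left out in turn.

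**Figure D2:**
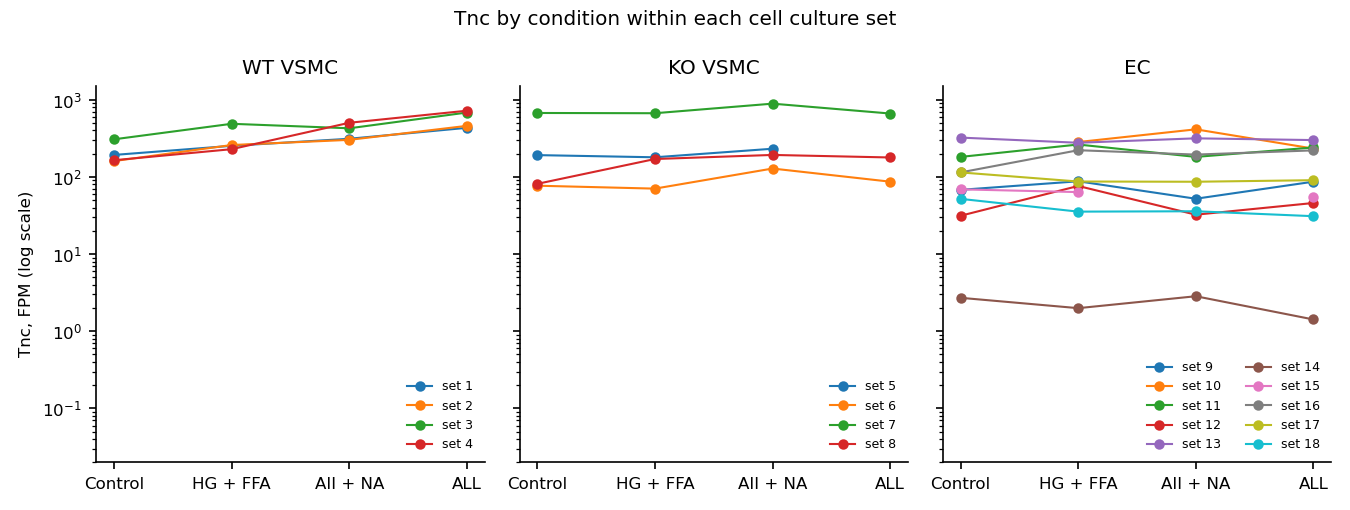
Tnc in FPM on a log scale under the 4 conditions, with 1 line per set, in WT VSMC, KO VSMC and EC. In WT VSMC all 4 lines end higher under ALL (431 to 718 FPM) than under Control (160 to 306 FPM), whereas the KO VSMC and EC lines lie apart by set.

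Tnc lies on the minus strand of chromosome 4 (mm39, chr4:63878014-63965443) with 7971 bases of exon. The 250 bases before its annotated start, chr4:63965444-63965693 on the minus strand of GRCm39, are shown because Tnc was the member that rose. They hold none of the 6 motifs searched on both strands, which were TATAAA, the AP-1 motif TGANTCA, the SMAD motif CAGACA, the TEAD motif GGAATG, the CArG box and the GC box GGGCGG. Of 21770 promoters of protein-coding genes of this length, these motifs occur in 11.9%, 6.17%, 15.6%, 12.1%, 1.4% and 36.3%.
Tnc: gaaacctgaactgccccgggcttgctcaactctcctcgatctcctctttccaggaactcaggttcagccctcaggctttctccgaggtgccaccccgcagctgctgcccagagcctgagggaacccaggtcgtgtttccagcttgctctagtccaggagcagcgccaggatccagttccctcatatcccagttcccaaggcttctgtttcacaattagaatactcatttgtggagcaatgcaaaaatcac

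In KO VSMC, Tnc was not called by any stressor. Control libraries of sets 5 to 8 stood at 191, 76.7, 671 and 81.1 FPM, a wider spread than in WT VSMC, with set 7 far above the rest. Under AII+NA they stood at 231, 128, 886 and 192 FPM, each above its own Control. Under HG+FFA they stood at 179, 70.3, 666 and 170 FPM, and under ALL sets 6 to 8 stood at 86.5, 660 and 178 FPM. The groups overlapped in every comparison. The log2FC was 0.63 (SE 0.17, edgeR FDR 0.509) under AII+NA, 0.18 (SE 0.17, edgeR FDR 0.644) under HG+FFA and 0.32 (SE 0.18, 95% interval -0.07 to 0.71, edgeR FDR 0.559) under ALL. No member was called in KO VSMC under HG+FFA, AII+NA or ALL, where 0.291%, 0% and 0.314% of all genes were. At an unadjusted edgeR p under 0.05 there were 3, 4 and 2 members, beside 12.4%, 9.76% and 10.5% of all genes. By the DESeq2 adjusted p alone there were 0, 0 and 1, beside 1.4%, 0.0627% and 1.48%.

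The test of the genotype difference itself gave an ALL effect on Tnc in WT VSMC that exceeded that in KO VSMC by a log2FC of 1.17 (SE 0.27, 95% interval 0.61 to 1.73). The edgeR FDR was 0.188 and the DESeq2 adjusted p was 0.0113, so the difference met the DESeq2 criterion but not that of edgeR. Among the 18339 genes in that fit, 0.0109% were called. Without set 8, whose Tnc was 2.19-fold higher under ALL than under Control, the difference was 1.46 and was called (edgeR FDR 0.0302). That was the largest Tnc ratio under ALL in KO VSMC, and without set 8 only sets 6 and 7 gave KO VSMC libraries under ALL. Not every fit with a VSMC set left out gave this call, so it is not read as added support. The difference was 0.31 (SE 0.26) under AII+NA and 0.38 (SE 0.25) under HG+FFA, with edgeR FDRs of 0.602 and 1. The smooth muscle marker sum in KO VSMC changed by a mean log2 ratio of -0.08 ± 0.18 (SD, n = 3) under ALL.

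In EC, Tnc ranged from 2.71 FPM in set 14 to 322 FPM in set 13 under Control, with a median of 68.8 FPM (n = 9). The lowest, median and highest values were 1.99, 87.2 and 282 FPM under HG+FFA, 2.84, 86.3 and 412 FPM under AII+NA and 1.42, 88.5 and 299 FPM under ALL. The groups overlapped almost wholly. The log2FC was 0.15 (95% interval -0.16 to 0.46) under HG+FFA, -0.04 (-0.36 to 0.29) under AII+NA and -0.03 (-0.34 to 0.28) under ALL. Under ALL, Tnc was higher than Control in 4 and lower in 5 of the 9 sets with both libraries. No member was called in EC under HG+FFA, AII+NA or ALL, where 0.659%, 0% and 0.641% of all genes were. At an unadjusted edgeR p under 0.05 there were 4, 0 and 3 members, beside 16.9%, 6.67% and 16.2% of all genes. By the DESeq2 adjusted p alone there were 2, 0 and 3, beside 5.65%, 0% and 5.22%. The difference between the ALL effects in WT VSMC and in EC was not tested.

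Thbs1 was not called, but its values under AII+NA were above Control in 4 of 4 sets of either VSMC genotype. In WT VSMC sets 1 to 4, Thbs1 stood at 2398, 892, 2408 and 839 FPM under Control and at 3129, 1445, 2636 and 1711 FPM under AII+NA. In KO VSMC sets 5 to 8 it stood at 1912, 1452, 1146 and 801 FPM under Control and at 2093, 2075, 1765 and 1709 FPM under AII+NA. The groups overlapped in both genotypes. The log2FC was 0.55 (SE 0.16, edgeR FDR 0.243, DESeq2 adjusted p 0.0381) in WT VSMC and 0.57 (SE 0.17, edgeR FDR 0.509) in KO VSMC, and the difference between them was -0.01 (95% interval -0.53 to 0.50). Under ALL, Thbs1 in WT VSMC stood at 2355, 1328, 2666 and 1881 FPM, a log2FC of 0.46 (SE 0.16, edgeR FDR 0.0989). In KO VSMC sets 6 to 8 it stood at 1588, 873 and 1381 FPM under ALL, a log2FC of 0.08 (SE 0.19). Gm13986 and Gm29233, on the opposite strand, share 11.1% of the Thbs1 exons.

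The 250 bases before the Thbs1 start, chr2:117941724-117941973 on the plus strand of GRCm39, are shown because Thbs1 was the only member whose window held the AP-1 motif. The capitals mark both TGANTCA matches, which begin at positions -141 and -60 from the start and read alike on either strand. A match is only a stretch of letters, and binding was not measured. Of the other windows, Thbs2 and Sparc held CAGACA, Thbs2 held TATAAA, Spp1 held GGAATG, Thbs3 and Fn1 held GGGCGG, and those of Tnxb and Postn held none.
Thbs1: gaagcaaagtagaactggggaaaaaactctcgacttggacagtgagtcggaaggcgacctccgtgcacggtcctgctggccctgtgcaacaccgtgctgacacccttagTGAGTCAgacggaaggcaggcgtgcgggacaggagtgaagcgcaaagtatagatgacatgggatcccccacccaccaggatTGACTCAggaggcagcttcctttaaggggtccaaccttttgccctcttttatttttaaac

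In EC, Thbs1 was lower under ALL than under Control in 7 of 9 sets, with a log2FC of -0.42 (SE 0.12, edgeR FDR 0.0397) that was below the size threshold. The lowest, median and highest values were 1023, 3002 and 7100 FPM under Control and 595, 1733 and 5880 FPM under ALL, so the groups overlapped. Against AII+NA, where Thbs1 ran from 881 to 6524 FPM, ALL differed by -0.47 (SE 0.12, edgeR FDR 0.0178). Without EC sets 9, 11 and 13 this last value was -0.64 (edgeR FDR 0.00271) and met the DEG rule.

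Thbs3, a thrombospondin of the pentameric subgroup with Comp, had lower values under HG+FFA and ALL in EC and under ALL in WT VSMC. In EC under HG+FFA its log2FC was -0.637 (SE 0.13, edgeR FDR 0.00294), just short of the size threshold of 0.64, and 8 of 9 sets were lower than their own Control. The lowest, median and highest values were 6.5, 17.1 and 61 FPM under Control and 4.05, 10.8 and 27.5 FPM under HG+FFA, and the groups overlapped. Under ALL they were 3, 12.4 and 37.9 FPM, and the log2FC was -0.55 (SE 0.13, edgeR FDR 0.012), with 8 of 9 sets lower. Under AII+NA it was -0.14 (SE 0.13, edgeR FDR 0.818). Without EC sets 9, 11 and 13, Thbs3 met the DEG rule under HG+FFA, at -0.71 (edgeR FDR 0.00994), and under ALL, at -0.64 (edgeR FDR 0.0241). In WT VSMC, Thbs3 stood at 47.5, 64.9, 26.5 and 53.3 FPM under Control and at 37.2, 50, 19.6 and 50.8 FPM under ALL, lower in each set, with a log2FC of -0.31 (SE 0.09, edgeR FDR 0.0469). Under HG+FFA the log2FC in WT VSMC was -0.06 (SE 0.09, edgeR FDR 0.862), with 2 sets higher and 2 lower. In KO VSMC sets 6 to 8 it stood at 16.8, 18 and 31 FPM under Control and 16.1, 10.3 and 23.6 FPM under ALL, with a log2FC of -0.38 (SE 0.13, edgeR FDR 0.306). Mtx1, on the opposite strand, shares 7.11% of the Thbs3 exons, and the strand setting of the counting is not given in the sources used here.

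Sparc in EC was lower by a small amount under the same conditions. Its log2FC was -0.25 (SE 0.06, edgeR FDR 0.0192) under HG+FFA and -0.28 (SE 0.06, edgeR FDR 0.00993) under ALL, lower in 8 and in 7 of 9 sets. The lowest, median and highest values were 1414, 2479 and 8376 FPM under Control, 1196, 3127 and 7224 FPM under HG+FFA and 1117, 3005 and 7936 FPM under ALL. The medians over all libraries were higher than under Control, whereas the fit compares libraries within a set, and set 10 has no Control library. Under AII+NA the log2FC was -0.01 (95% interval -0.14 to 0.13). By the edgeR FDR alone, with no size threshold, 2 of 9 members were lower under HG+FFA and 3 of 9 under ALL in EC, against 1.88% and 2.04% of all genes tested. With the animal in place of the set as block, which joins sets 17 and 18, no member passed: the edgeR FDR of Thbs3 was 0.273 under HG+FFA and 0.39 under ALL, that of Sparc 0.781 and 0.767, and that of Thbs1 under ALL 0.622. With 1 set per animal, that is without set 18, Thbs3 under HG+FFA was at -0.59 (edgeR FDR 0.00552), Sparc under HG+FFA and ALL at -0.26 and -0.27 (0.0369 and 0.0422), Thbs3 under ALL at -0.44 (0.0553) and Thbs1 under ALL at -0.37 (0.129). The fit without set 17 in place of set 18 was not run.

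**Figure D3:**
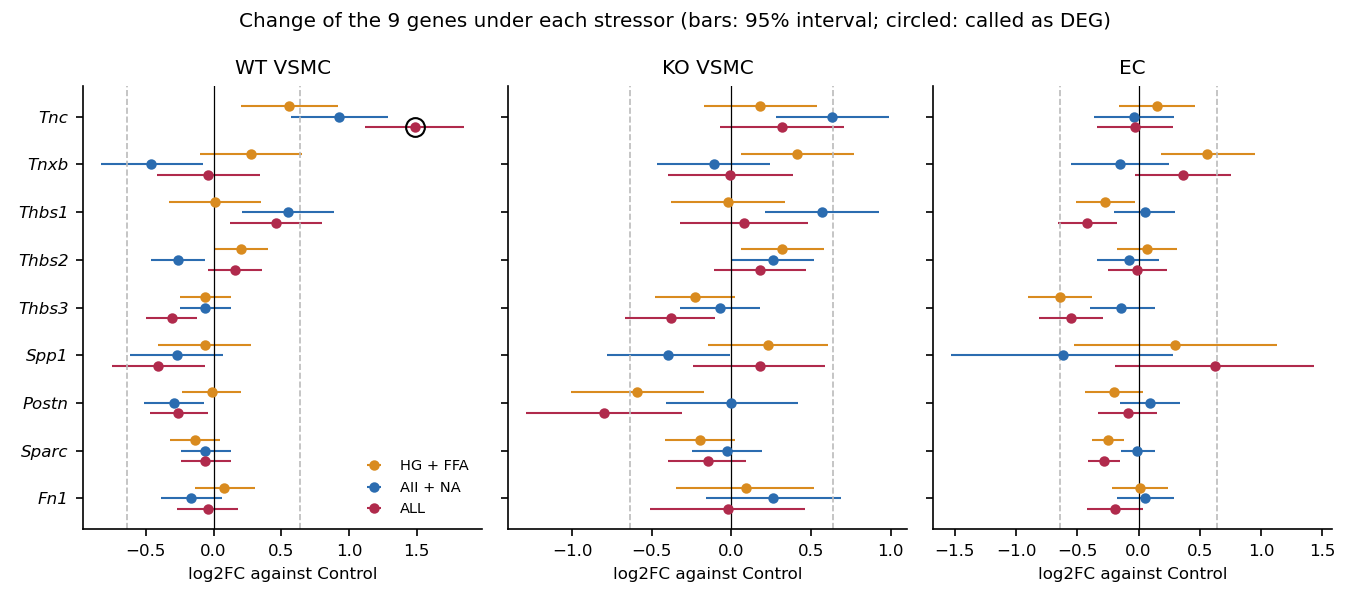
Log2FC of the 9 members against Control for HG+FFA, AII+NA and ALL in WT VSMC, KO VSMC and EC, with 95% intervals from edgeR as bars and dashed lines at the size threshold of 0.64 in either direction. Tnc in WT VSMC under ALL, at 1.49, is circled as the value that met the DEG rule.

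Thbs2 was high in WT VSMC, at 1479, 1695, 843 and 2851 FPM under Control, and split the KO VSMC sets, at 1067, 142, 187 and 1038 FPM in sets 5 to 8. Under AII+NA, Thbs2 in WT VSMC stood at 1298, 1315, 819 and 2055 FPM, each below its Control, with a log2FC of -0.26 (SE 0.09, edgeR FDR 0.347). Under ALL it stood at 1791, 1974, 984 and 2699 FPM, above AII+NA in each set, by a log2FC of 0.42 (SE 0.09, edgeR FDR 0.0395) that was below the size threshold. In KO VSMC the AII+NA libraries stood at 995, 184, 248 and 1341 FPM, a log2FC of 0.26 (SE 0.12, edgeR FDR 0.509). The AII+NA effects of the genotypes differed by -0.51 (SE 0.15), with an edgeR FDR of 0.395. In EC, Thbs2 was lowest in set 12 and highest in set 13 under Control, from 28.8 to 2654 FPM with a median of 386 FPM, and its log2FC was -0.01 (95% interval -0.25 to 0.23) under ALL.

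Tnxb, a tenascin of loose connective tissue that associates with collagen fibrils, stood at 188, 468, 397 and 732 FPM in WT VSMC under Control. Under AII+NA it stood at 143, 324, 343 and 444 FPM, lower in each set, with a log2FC of -0.46 (SE 0.18, edgeR FDR 0.396). Under HG+FFA, at 248, 750, 364 and 798 FPM, 3 of 4 sets were higher, with a log2FC of 0.28 (SE 0.18, edgeR FDR 0.612). In KO VSMC, Tnxb stood at 403, 53.5, 125 and 129 FPM under Control and at 392, 108, 137 and 196 FPM under HG+FFA, with a log2FC of 0.41 (SE 0.17, edgeR FDR 0.341). In EC, the lowest, median and highest values were 6.3, 42.4 and 314 FPM under Control and 8.58, 100 and 377 FPM under HG+FFA. There 8 of 9 sets were higher than Control, with a log2FC of 0.56 (SE 0.19, edgeR FDR 0.0958).

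Postn, periostin, a protein that aids collagen assembly, differed between sets far more than between conditions in WT VSMC. It stood at 226, 107, 1.33 and 81.6 FPM under Control and at 220, 88.8, 0.72 and 66.3 FPM under ALL, and set 3 stayed at 0.704 to 1.33 FPM in all conditions. The log2FC under ALL was -0.26 (SE 0.10, edgeR FDR 0.157). In KO VSMC, set 5 stood at 158 FPM under Control and sets 6 to 8 at 6.71, 13.7 and 9.97 FPM. Under ALL sets 6 to 8 stood at 5.01, 4.21 and 7.35 FPM, lower in 3 of 3, with a log2FC of -0.80 (SE 0.23, edgeR FDR 0.196, DESeq2 adjusted p 0.0361). Under HG+FFA, at 129, 5.06, 5.51 and 7.3 FPM, all 4 sets were lower, with a log2FC of -0.59 (SE 0.20, edgeR FDR 0.277). In EC, Postn ran from 4.69 to 466 FPM under Control with a median of 29.5 FPM, and its log2FC under ALL was -0.09 (95% interval -0.33 to 0.15).

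Spp1, osteopontin, a ligand of integrins and CD44, stood at 57.9, 99.1, 28.5 and 139 FPM in WT VSMC under Control and at 61.8, 54.6, 22.2 and 100 FPM under ALL, a log2FC of -0.41 (SE 0.16, edgeR FDR 0.157). In KO VSMC it stood at 140, 79.4, 25 and 195 FPM under Control and at 117, 42.6, 24.2 and 141 FPM under AII+NA, a log2FC of -0.40 (SE 0.18, edgeR FDR 0.509). In EC, Spp1 was low, with a Control median of 5.61 FPM and a range of 0.452 to 58.4 FPM. Its log2FC there was 0.62 (95% interval -0.19 to 1.43) under ALL, the widest interval of the 9 members. The transcript model Gm42793 on the same strand shares 12.7% of the Spp1 exons, and reads in that stretch may not have been counted for Spp1.

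Fn1 stood at 2528, 4018, 3313 and 4740 FPM in WT VSMC under Control and at 2405, 3310, 3953 and 4427 FPM under ALL, with a log2FC of -0.04 (95% interval -0.27 to 0.18). In KO VSMC it stood at 7507, 5881, 4045 and 1644 FPM under Control, and the log2FC under ALL was -0.02 (95% interval -0.51 to 0.46). In EC the log2FC was 0.01 (95% interval -0.22 to 0.24) under HG+FFA and -0.19 (-0.42 to 0.04) under ALL. Sparc in VSMC had log2FC values of -0.20 to -0.03 across all stressors, with intervals that included 0. Over the members, the median log2FC under ALL was -0.04 (WT VSMC), -0.01 (KO VSMC) and -0.09 (EC), beside -0.01, -0.00 and -0.01 over all genes tested.

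Under Control, no member was called between KO VSMC and WT VSMC, where 0.00622% of 16089 genes were. At an unadjusted edgeR p under 0.05 there was 1 member, beside 12.2% of all genes, and by the DESeq2 adjusted p alone there was 0, beside 2.13%. The largest differences were -1.49 for Thbs2 (SE 0.69, 95% interval -3.05 to 0.07), -1.33 for Tnxb (SE 0.60, -2.69 to 0.03) and -1.15 for Postn (SE 1.29, -4.06 to 1.76), with edgeR FDRs of 0.414, 0.411 and 0.697. The intervals include both no difference and several-fold lower levels in KO VSMC. Thbs3 differed by -0.83 (SE 0.36, edgeR FDR 0.409) and Tnc by 0.30 (SE 0.65, -1.16 to 1.76). The cultures also differed in their fibroblast markers, with a median sum over the sets of 3733 FPM in WT VSMC and 744 FPM in KO VSMC. The part of these markers in the differences between the genotypes was not tested. Set 5, which kept some Egfr, had the highest Tnxb, Thbs1, Thbs2, Thbs3, Postn and Fn1 of the KO VSMC sets under Control. Its Thbs2, at 1067 FPM, was close to that of set 8, at 1038 FPM. Tnc and Sparc were highest in set 7 and Spp1 in set 8. Its fibroblast markers summed to 2851 FPM, beside 348, 874 and 614 FPM in sets 6 to 8, and its smooth muscle markers to 3236 FPM, beside 1162, 1999 and 896 FPM, and their part in these levels was not tested.

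Fn1 was the only member called between EC and WT VSMC under Control. It was higher in EC by a log2FC of 1.86 (SE 0.34), a 3.63-fold difference, at an edgeR FDR of 0.0062 and a DESeq2 adjusted p of 4.37e-09. In EC, Fn1 ran from 7727 to 19284 FPM with a median of 11843 FPM (n = 9), and all 9 libraries lay above the highest WT VSMC library, at 4740 FPM. That was 1 of 9 members higher and none lower, against 5.46% of 17115 genes called higher and 9.87% called in either direction. Spp1, Tnxb and Thbs3 had lower values in EC, with log2FCs of -2.53 (SE 0.94), -2.24 (SE 0.88) and -1.23 (SE 0.47) and edgeR FDRs of 0.0865, 0.103 and 0.0957. Thbs1 differed by 0.99 (SE 0.52, edgeR FDR 0.213). Sparc and Postn differed by 0.04 (95% interval -1.11 to 1.20) and 0.02 (-2.39 to 2.43), so even several-fold differences in Postn were not resolved. Without EC sets 9, 11 and 13, Tnxb at -3.87 (edgeR FDR 0.00274) and Thbs3 at -1.74 (edgeR FDR 0.0069) were also called, and Fn1 was at 2.04. These sets were chosen by their endothelial markers after the data were seen. Sets 9 and 13 held the highest Control Tnxb in EC, at 292 and 314 FPM, and set 13 the highest Thbs3, at 61 FPM. Lower EC values in this fit therefore follow in part from the choice of sets, and the added calls are not read as further support. With 1 set per animal, that is without EC set 18, Fn1 was at 1.84 (edgeR FDR 0.00852) and Spp1 at -3.30 (edgeR FDR 0.0311) was called too, whereas Tnxb and Thbs3 were not. Set 18 held the highest Control Spp1 in EC, at 58.4 FPM, beside 1.12 FPM in set 17 from the same animal. The fit without set 17 in place of set 18 was not run, so this Spp1 call may depend on which set was left out.

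The share of a member's variance that lay between sets set Tnc in WT VSMC apart from the rest. On the log2 scale, the condition held 69% and the set 19.6% of the variance of Tnc over the 16 WT VSMC libraries. For the other 8 members in WT VSMC the set held 69.7% (Thbs1) to 99.5% (Postn). In KO VSMC the condition held more than the set for Thbs1 (49.8% and 22.7%) and Postn (59% and 13.5%), over the 3 complete sets, which leave out set 5. In EC the set held 75.7% (Fn1) to 98.7% (Thbs2) over 8 complete sets. These shares are descriptions over few sets.

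**Figure D4:**
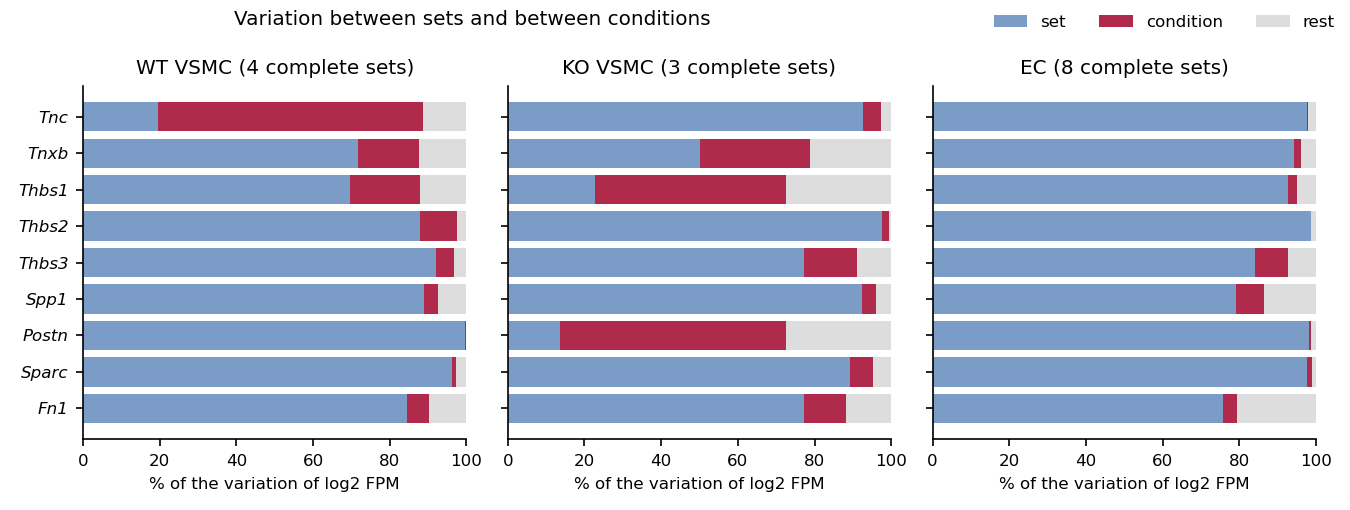
Share of the variance in log2 FPM that lay between sets, between conditions and in the rest, in percent, for each member in WT VSMC, KO VSMC and EC, over complete sets only. The condition share of Tnc in WT VSMC, at 69%, exceeds its set share of 19.6%, whereas Postn there has a set share of 99.5%.

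Over the 9 EC animals, member levels were set beside the 7 marker lists, in 63 pairs. None reached an adjusted p under 0.05 for Pearson's r or Spearman's rho in two-sided exact permutation tests. The r of largest size was that of Thbs3 with the smooth muscle markers, at 0.86 with rho = 0.73 (adjusted permutation p = 0.114 and 0.196), and it was 0.60 without the 2 animals farthest from the median. Fn1 with the endothelial markers had r = 0.82 and rho = 0.87 (adjusted permutation p = 0.0859 and 0.071), and r was 0.57 without those 2 animals. Thbs2 with the fibroblast markers and Tnxb with the mesothelial markers both had r = 0.81 (adjusted permutation p = 0.114 for each), and without the 2 animals farthest from each median 0.32 and 0.53. Against the endothelial markers, r was -0.79 for Tnxb, -0.77 for Thbs2 and -0.79 for Thbs3 (adjusted permutation p = 0.122, 0.122 and 0.114), and without 2 animals -0.57, -0.60 and -0.81. The rho of largest size was -0.90, for Thbs2 with these markers (adjusted permutation p = 0.071). Sets 17 and 18, from 1 animal, differed in both measures, with summed endothelial markers of 537 and 3538 FPM and Thbs2 at 1002 and 132 FPM under Control. In bulk libraries, fewer cells of a type and less RNA per cell cannot be told apart.

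**Figure D5:**
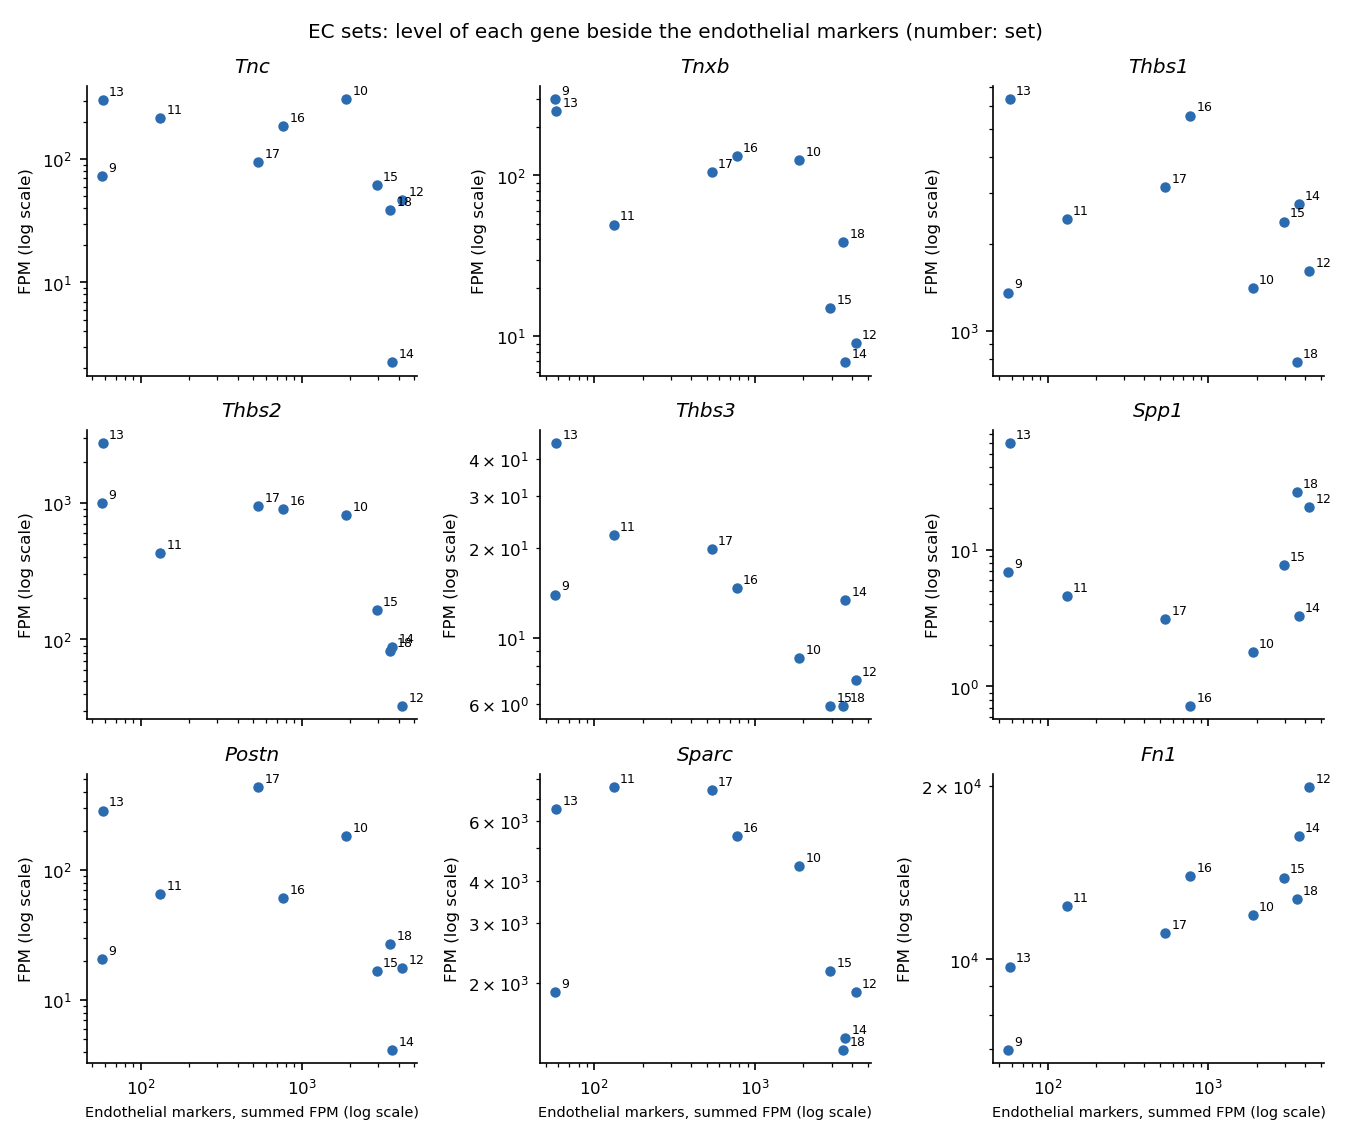
Level of each of the 9 members against the summed endothelial markers in the 10 EC sets, both in FPM on log scales, with 1 point per set, numbered, as the mean over its libraries. Fn1 lies higher and Tnxb, Thbs2 and Thbs3 lie lower in sets with more endothelial marker RNA, and none of these relations passed adjustment over the 63 pairs.

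Other matricellular genes, the receptors of these proteins and genes of TGF-beta signalling were counted with the same rule. In WT VSMC under ALL, 2 of 19 tested matricellular genes rose and 1 fell, against 2.19% of all genes called in either direction. Ccn5 rose by 0.76 (SE 0.20, edgeR FDR 0.0287) and Fbln7 by 0.72 (SE 0.13, edgeR FDR 0.00393), and Tgfbi, a secreted protein induced by TGF-beta, had a log2FC of -0.76 (SE 0.16, edgeR FDR 0.0102). Of 15 receptor genes 2 rose and 1 fell. Itga8, an integrin chain that pairs with Itgb1 and binds Tnc and Fn1, rose by 1.76 (SE 0.25, edgeR FDR 0.000918) and Cd36, a thrombospondin receptor and fatty acid carrier, by 1.95 (SE 0.37, edgeR FDR 0.00533), whereas Itgb3 was at -0.94 (SE 0.14, edgeR FDR 0.00146). Of the 10 TGF-beta genes reported 1 rose, the ligand Tgfb2, by 0.96 (SE 0.17, edgeR FDR 0.00337). The median log2FC of the 3 lists was -0.10, -0.11 and -0.03, beside -0.01 over all genes. With 1 set left out, the ALL call of Ccn5 was lost without set 2, 3 or 4, that of Fbln7 without set 1, that of Tgfbi without set 4 and that of Cd36 without set 1 or 2, whereas Itga8, Itgb3 and Tgfb2 were called each time. Under AII+NA, Itga8 rose by 1.62 (SE 0.25, edgeR FDR 0.0278) and was the only list gene called. With each set left out in turn, the AII+NA call of Itga8 was lost without sets 1, 2 and 4.

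In KO VSMC no gene of the 3 lists was called under HG+FFA, AII+NA or ALL. Without set 5, which kept some Egfr, Comp was called under HG+FFA, at -1.19 (edgeR FDR 0.0247), and Tgfbi under ALL, at -0.71 (edgeR FDR 0.0493). Ccn1, an early-response matricellular gene, was lower under ALL than under AII+NA by a log2FC of -0.75 (SE 0.14, edgeR FDR 0.0312), where 0.302% of all genes were called. That call was lost without set 6, 7 or 8, at -0.58 to -0.88. In EC, Tgfbi fell under HG+FFA, at -0.65 (SE 0.19, edgeR FDR 0.0463), and under ALL, at -0.73 (SE 0.19, edgeR FDR 0.0233). Ccn3 fell under HG+FFA, at -0.81 (SE 0.22, edgeR FDR 0.0305), and Ltbp2, a latent TGF-beta binding protein, under ALL, at -0.75 (SE 0.12, edgeR FDR 0.000153). None of these 4 EC calls was kept with the animal in place of the set as block. Without EC sets 9, 11 and 13 the HG+FFA call of Tgfbi was lost (edgeR FDR 0.0979), and further genes were called. Cd36 was higher under HG+FFA at 4.14 and under ALL at 3.99, Fbln5 lower at -0.68 and -0.70, and Itga8 lower under ALL at -0.67.

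Between EC and WT VSMC under Control, 1 of 19 matricellular genes was called higher in EC and 5 lower, against 5.46% of all genes called higher and 9.87% in either direction. The lower ones were led by Comp at -6.36 (SE 0.93), Ccn3 at -5.70 (SE 0.92) and Fbln7 at -3.29 (SE 0.88), and Ccn1 was higher by 1.58 (SE 0.45). Of the receptors, Itga4, which binds an alternatively spliced part of fibronectin, at 4.57 (SE 1.40) and Itgav at 0.92 (SE 0.22) were called higher. The 4 TGF-beta genes called higher were Smad7 at 2.31 (SE 0.46), Tgfb2 at 2.14 (SE 0.40), Skil at 1.26 (SE 0.30) and Tgfbr1 at 1.03 (SE 0.31). With any WT VSMC set left out, no receptor, 1 to 3 matricellular and 2 to 3 TGF-beta genes were called. Without EC sets 9, 11 and 13 the calls were 2 higher and 7 lower matricellular genes, 4 higher and 1 lower receptors and 4 higher and 1 lower TGF-beta genes. The share of all genes called in these refits is not given here, so their counts are not read as a result about the lists.

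Across the 31 VSMC libraries, centred on the set mean, the genes most like Tnc were Myh10, a non-muscle myosin heavy chain (r = 0.96), Tgfb2 (r = 0.95) and Sqle (r = 0.93), of 11298 protein-coding genes compared. For Thbs1 they were Nuak1 (r = 0.93), Myo10 (r = 0.92) and Etl4 (r = 0.92), and for Thbs3 Olfml3 (r = 0.90), Clec3b (r = 0.89) and Cdkn1c (r = 0.88). Fn1 was most like Glg1 (r = 0.92) and Thbs2 most like Fmo2 (r = 0.87). The highest r was 0.88 for Tnxb with Ralgds, 0.85 for Sparc with Itgb5, 0.84 for Postn with Socs2 and 0.83 for Spp1 with Hook2. The libraries share sets and conditions, so these values describe likeness only.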

How the data were processed

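Bulk poly(A) RNA-seq libraries of WT VSMC, KO VSMC and EC were used as 3 tables of raw counts per Ensembl gene, deposited by the authors. Per the labels and the study's methods, the authors aligned paired reads to mm39 with HISAT2 2.1.0 and counted exons with featureCounts, multi-mapping reads included; the strand setting is not given in the sources used here. Total counts per library were 17166133 to 43240489. The Ensembl identifiers were matched to GRCm39 with the GENCODE annotation, which named 56310 of 56953, and the others held 0.0241% of the counts.

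Genes passing filterByExpr were fitted per cell type with edgeR 4.0.16 (quasi-likelihood, TMM) and DESeq2 1.42.0 in R 4.3.3, with the set number as replicate block. The study's methods pair by animal, which is the same in VSMC but joins EC sets 17 and 18, so the animal block was an alternative for EC. The log2FC, SE and FDR printed are edgeR's, adjusted over all genes tested. The genotype difference of an effect was tested in 1 fit of all VSMC libraries, and cell types were compared under Control without a block. Libraries of a set deviated together from their group means, with a mean correlation of 0.797 (WT VSMC), 0.78 (KO VSMC) and 0.82 (EC), and the labels give each set 1 animal. On simulated data, 88% (WT VSMC), 79.5% (KO VSMC) and 87% (EC) of genes changed by a log2FC of 0.75 under ALL were recovered, and 67.3% and 67% of those changed by 1.5 in the comparisons of KO VSMC and of EC with WT VSMC. Recovery there needed both adjusted p-values and the FPM minimum but not the size threshold, so these shares do not measure the full DEG rule. Among the 207 pairs of libraries within a group, none was a duplicate, and pairs across groups were not checked for this. FPM on the log scale used a pseudocount of 0.1.

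The members, the gene lists and the promoter motifs were chosen with earlier results of these data known. 1 gene of the TGF-beta list is not reported here, and the counts and medians of that list leave it out. All members are named; of the lists, up to 4 called genes per comparison by size of log2FC; for each member, the 3 most alike protein-coding genes, of which 1 to 3 are printed. Each set's libraries share an animal, so p-values describe the spread between these sets. Alternatives were DESeq2 or edgeR alone, other size factors, no filter, no block, other samples and leaving out sets. Promoter letters came from GRCm39.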

Additional observations from a re-analysis of the deposited data

Results flagged for a closer look

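Of 99 groups of 4 to 10 libraries tested for a member library far from the others by Dixon's criterion, 15 had one. The criterion nominally flags about 1 in 20. The groups repeat the same sets across conditions and FPM was not log-transformed, so no excess over that rate is read from this. EC set 13 held 9 of the 15. Its Thbs2 was 2654 FPM under Control, 2774 under HG+FFA, 2525 under AII+NA and 3043 FPM under ALL, while the other EC sets reached at most 1108 FPM. Its Thbs3 was 61 FPM under Control and 54.1 FPM under AII+NA, and its Spp1 was 93.7 FPM under HG+FFA, 34.4 FPM under AII+NA and 79.9 FPM under ALL. Set 13 is one of the EC sets with few endothelial markers, at a summed 58.1 FPM, whose part in these values was not tested. KO VSMC set 5 had the highest Postn, at 158 FPM under Control, 129 FPM under HG+FFA and 145 FPM under AII+NA, where the other KO VSMC sets reached at most 14.2 FPM, and it also had more Egfr, at 36.5 FPM. Tnc in WT VSMC set 3 was 486 FPM under HG+FFA, where the others reached 258 FPM, and Tnc in KO VSMC set 7 was 886 FPM under AII+NA, where the others reached 231 FPM. Postn in EC set 17 was 466 FPM under Control, where the others reached 238 FPM.

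The ALL effect on Tnc differed between WT VSMC and KO VSMC by a log2FC of 1.17 in the DESeq2 test of the difference (adjusted p = 0.0113), which edgeR's FDR of 0.188 did not reach.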

How the results depend on the processing

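The Tnc call in WT VSMC under ALL kept its direction and its call under every alternative run except the fit with no replicate block, where 0 members were called (Tnc 1.47, edgeR FDR 0.164), and without 1 set it ranged from 1.28 to 1.61. Fn1 between EC and WT VSMC was called under every alternative run, at 1.71 to 2.01 without 1 WT VSMC set. The replicate block changed no other member call, but without it no gene of the 3 lists was called in WT VSMC under ALL. With no log2FC threshold, members called were 2 in WT VSMC under ALL, 1 between ALL and AII+NA there, 2 in EC under HG+FFA, 3 under ALL and 2 between ALL and AII+NA. With no filter on low counts, 1 member was called in EC under HG+FFA (Thbs3), in KO VSMC under ALL and between ALL and AII+NA (Postn), in WT VSMC under AII+NA and between ALL and HG+FFA (Tnc), and in the genotype difference under ALL (Tnc). DESeq2 alone gave the same counts of 1 in these comparisons, except EC under HG+FFA with 0. Complete sets only gave 1 in EC under HG+FFA, and fitting only the conditions compared gave 1 in WT VSMC under AII+NA (Tnc, edgeR FDR 0.0256). Leaving out VSMC sets gave 0 to 1 for the genotype difference under ALL, 1 without set 8. The alternatives chosen after seeing the data gave, without EC sets 9, 11 and 13, 1 member in EC under HG+FFA, 1 under ALL, 1 between ALL and AII+NA and 3 between EC and WT VSMC, and with 1 set per animal 2 between EC and WT VSMC. Looser rules can call more genes of any kind, and the share of all genes called in each alternative is not given here. These counts, and those of the 3 lists under the alternatives, are therefore not read as a result about the members or lists. The cause of the changes was not tested.

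Over the 58 member values with an unadjusted p under 0.05, the alternatives gave 625 unchanged results and 0 changes of sign. A further 29 results were newly past and 1 was no longer past the threshold. Of these values, only Tnc in WT VSMC under ALL and Fn1 between EC and WT VSMC were called in the main fit. Most unchanged results were thus values that stayed uncalled, and the counts are no measure of stability. They leave out shifts in FDR, such as those of Thbs3, Sparc and Thbs1 in EC with the animal as block. The other 149 values, mostly near 0, gave 1564 unchanged results and 148 changes of sign. Depth limits the lowest values most: the lowest count in any library was 7 for Spp1, in EC set 16 under AII+NA, and 20 for Postn, in WT VSMC set 3 under ALL.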
